A study of Oryza sativa with 18 samples.

Results

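The early transcript response of NIL-Bph6-RNAi, the rice line that the labels call susceptible to the brown planthopper, was measured in leaf sheath by setting 3 arrays of plants infested for 6 h against 3 arrays of plants taken at 0 h without insects. These 6 arrays were chosen by their titles from the 18 of the series. By its name the line is NIL-Bph6, a near-isogenic line with the resistance gene Bph6, carrying an RNAi construct, and NIL-Bph6 itself was sampled in the same way, with 3 arrays at each time. Both lines also have 3 arrays at 48 h. All plants were 3 weeks old and grown in a chamber, and replicates are labelled biological. The labels give no promoter for the construct, no number of independent transformants and no number of plants per array.

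The titles and source names give the line and the times used here, whereas the cultivar and description fields of the same samples name NIL-BPH9, and the description gives 3 h for the 6 h arrays and 6 h for the 48 h arrays. The groups follow the titles, so every value given below for 6 h or 48 h rests on arrays whose labels disagree on the time. No plants kept for 6 h without insects were analysed here, so hours in the chamber and feeding cannot be told apart. The targeted gene was not analysed here. Of 64 probe sets for reporter and marker genes, 1 read 11.85 to 13.15 on the arrays of the RNAi line and 0.97 to 5.44 on those of NIL-Bph6, and this was the only check of the line labels. Values are log2 MAS5 signals, in which a difference of 1 is a doubling of the signal, and a level can be compared between samples but not between probe sets. The 10 light-reaction genes measured, known to be abundant in green tissue, had 0 h means of 9.08 to 15.16. Genes counted as measured only where their signal exceeded the median of all values, 5.78, on at least 3 arrays. These levels are therefore no test of the tissue. In bulk sheath, fewer cells of a type and less RNA per cell cannot be told apart.

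The brown planthopper pierces the leaf sheath with its stylets and feeds on phloem sap, so the plant meets wounding, saliva and loss of sap together. Early answers to such attack are known to run through calcium sensors and MAP kinases to jasmonate, abscisic acid, ethylene and salicylate, and to transcription factors of the WRKY, AP2/ERF, MYB and NAC families. Jasmonate signalling is held back by JAZ proteins, which are destroyed when the hormone binds its receptor COI1 and whose own genes are then transcribed, so JAZ transcripts are widely used as readouts of the pathway.

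At 6 h, 1736 of 32732 probe sets (5.30%) differed from 0 h at an adjusted p under 0.05 in limma. Of all probe sets 3.70% rose and 1.61% fell, which is 1210 and 526. The rises were larger, with a median of 1.14 against -0.73 for the falls, and 59 probe sets rose at least 8-fold whereas 1 fell so far. Across all 16404 genes, each represented by its brightest probe set, the median change was 0.03, and 831 (5.07%) rose and 359 (2.19%) fell. These percentages are the background for the counts below of genes called from 0 h to 6 h on all arrays. They do not apply to counts at an unadjusted p under 0.05, which 6585 of the 32732 probe sets reached in limma. Nor do they apply to counts with changed settings or from 6 h to 48 h. Gene lists were filled by name, which most annotated genes lack, so a list is not a whole family. In 1726 of the 1736 called probe sets the 0 h and 6 h arrays did not overlap, so non-overlap, where it is given below, sets no called gene apart from the others. Many calls lay near the threshold, with 293 at an adjusted p of 0.04 to 0.05 and 313 at 0.05 to 0.06. Without 0 h replicate 2 the count was 669 and without 6 h replicate 3 it was 885. Where a call given below with its adjusted p ended without some array, those arrays are named. Changes are given as log2 6 h minus 0 h ± SE, with n = 3 per group and adjusted p from limma.

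**Figure D1:**
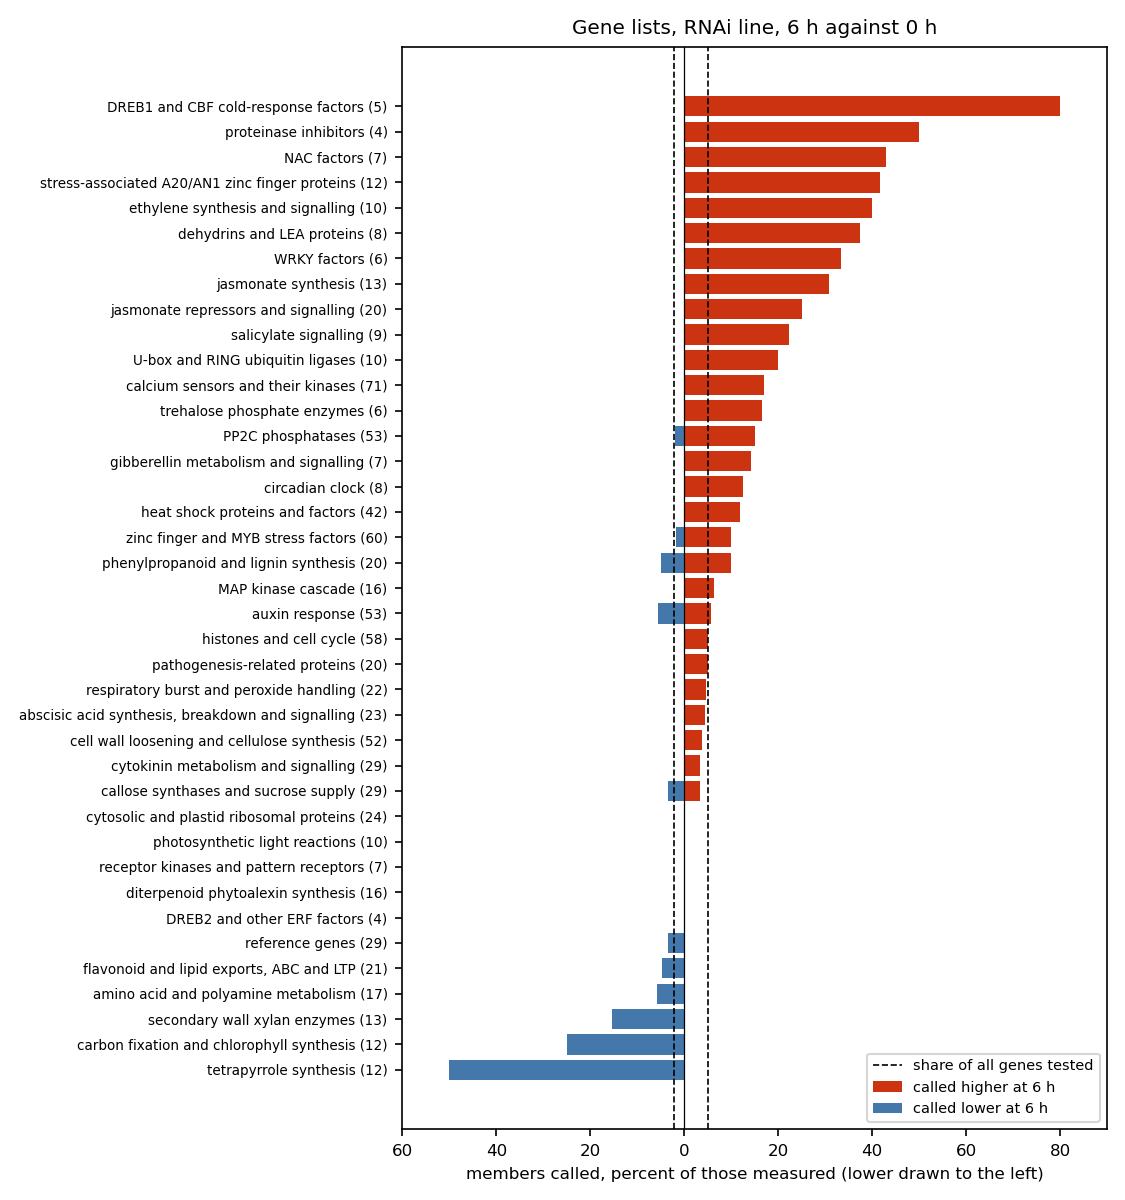
Share of measured members of each gene list that passed the test at 6 h against 0 h in NIL-Bph6-RNAi, higher to the right and lower to the left, with the number measured in brackets. Dashed lines mark the shares of all genes tested, 5.07% and 2.19%. The DREB1 list reaches farthest to the right, with 4 of 5 members, and tetrapyrrole synthesis farthest to the left, with 6 of 12. The tetrapyrrole, SAP and PP2C lists were chosen after their values were seen.

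Of the 5 DREB1 or CBF genes, AP2/ERF activators best known for the cold response, 4 rose and 0 fell, with a median change of 3.23. CBF3 (LOC4347620, also DREB1A) read 2.45, 5.36 and 5.31 at 0 h and 9.69, 10.54 and 10.04 at 6 h, a change of 5.71 ± 0.59 (adjusted p = 2.64e-05). Its 0 h arrays lay below the overall median of 5.78, where this platform is imprecise, and replicate 1 was the lowest. DREB1B (LOC4347618) read 5.67, 6.34 and 6.33 at 0 h and 11.56, 11.98 and 11.71 at 6 h, a change of 5.64 ± 0.35 (adjusted p = 6.16e-07). DREB1G (LOC4330306) went from 7.05, 7.11 and 7.03 to 10.21, 10.19 and 10.49, a change of 3.23 ± 0.37 (adjusted p = 7.07e-05). DREB1E (LOC4336721) went from 6.43, 7.08 and 5.65 to 8.01, 8.82 and 8.29, a change of 1.99 ± 0.37 (adjusted p = 0.00457). In all 4 genes every 6 h array stood above every 0 h array. The exception was CBF1 (LOC4339974, also DREB1C), at 5.46, 5.61 and 6.15 and then 4.36, 5.07 and 5.77, with overlapping arrays, a change of -0.68 ± 0.82 and adjusted p = 0.711. At 48 h the means of CBF3 and DREB1B were 11.65 ± 0.41 and 12.65 ± 0.45 (SD, n = 3). In NIL-Bph6 CBF3 went from 6.57 ± 0.49 at 0 h to 10.68 ± 0.39 at 6 h, and DREB1B from 7.91 ± 0.46 to 11.57 ± 0.53. The 4 genes of the DREB2 and other ERF list gave 0 calls, 0 also at an unadjusted p under 0.05, with changes from 0.01 to 0.31.

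**Figure D2:**
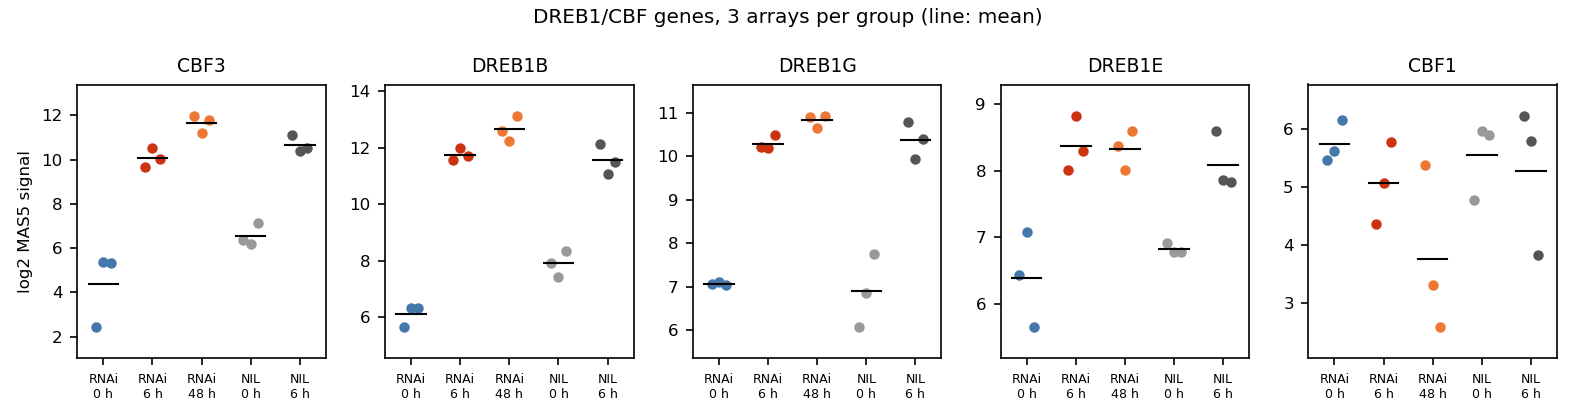
Log2 MAS5 signal of the 5 DREB1 genes on each array (points) with group means (lines) in NIL-Bph6-RNAi at 0, 6 and 48 h and NIL-Bph6 at 0 and 6 h. CBF3, DREB1B, DREB1G and DREB1E separate 0 h from 6 h completely, and CBF1 does not.

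In the jasmonate repressor and signalling list 5 of 20 measured genes rose and 0 fell, with a median change of 0.34. The 5 were BHLH148, whose protein is known to bind a JAZ repressor, and JAZ13, JAZ9, JAZ12 and JAZ10. BHLH148 (LOC4334060) read 8.49, 7.60 and 8.35 at 0 h and 11.39, 11.91 and 12.10 at 6 h, a change of 3.66 ± 0.40 (adjusted p = 4.22e-05). JAZ13 (LOC4348531) read 8.91, 8.89 and 9.19 and then 11.74, 12.46 and 12.42, a change of 3.21 ± 0.50 (adjusted p = 0.00117). For both, the lowest 6 h array was more than 2 log2 units above the highest 0 h array. JAZ9 (LOC4331832) read 8.97, 8.62 and 9.31 and then 11.46, 12.27 and 12.15 (2.99 ± 0.60, adjusted p = 0.00852), and its replicate 1 at 6 h was the lowest. JAZ12 (LOC4348533) rose from 11.47, 11.12 and 11.67 to 12.96, 13.23 and 13.54 (1.82 ± 0.30, adjusted p = 0.00171). JAZ10 (LOC4331834) rose from 12.25, 12.13 and 12.18 to 13.53, 13.89 and 13.82 (1.56 ± 0.23, adjusted p = 0.000755), and the arrays of neither gene overlapped between times.

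The other JAZ genes did not pass. JAZ11 stood at 0.87 ± 0.29 (adjusted p = 0.0931) and JAZ6 at 0.70 ± 0.22 (adjusted p = 0.0807), while JAZ7, JAZ1 and JAZ8 lay between -0.07 and -0.02. JAZ7 and JAZ1 were bright on all 6 arrays, between 13.75 and 14.17. The receptor genes COI1, COI1B and COI2 lay at 0.18 ± 0.12, 0.32 ± 0.10 and 0.16 ± 0.13, and the co-repressor adaptor gene NINJA1 at -0.12 ± 0.09, none past the test. JAMYB, a MYB gene known to be induced by jasmonate, read 9.57, 9.06 and 9.64 at 0 h and 9.21, 8.81 and 9.03 at 6 h, a change of -0.41 ± 0.33 (adjusted p = 0.547). In the same gene NIL-Bph6 went from 8.89 ± 0.56 to 10.15 ± 0.42, a difference between the lines' changes of -1.67 ± 0.47 that did not pass (adjusted p = 0.233).

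Of the jasmonate synthesis genes 4 of 13 rose and 0 fell, with a median change of 0.42. AOS2 (LOC4332121), an allene oxide synthase that commits the lipoxygenase product to this pathway, read 9.14, 8.79 and 8.74 at 0 h and 9.84, 10.09 and 10.03 at 6 h, a change of 1.10 ± 0.19 (adjusted p = 0.00286). The others were oxophytodienoate reductase genes. OPR5 (LOC4340485) went from 8.64, 8.54 and 9.36 to 10.72, 10.07 and 10.77 (1.67 ± 0.41, adjusted p = 0.0277). OPR10 (LOC4340486) went from 9.17, 8.68 and 8.73 to 10.26, 10.14 and 10.65 (1.49 ± 0.31, adjusted p = 0.0107), and OPR1 (LOC4340490) from 8.10, 7.38 and 8.33 to 8.86, 9.35 and 9.66 (1.35 ± 0.35, adjusted p = 0.0333). None of the 3 overlapped between the times. The call of OPR5 ended without 0 h replicates 1 or 2 or 6 h replicates 1 or 3, at an adjusted p of up to 0.127, that of OPR10 without 0 h replicate 2 or 6 h replicate 3, at an adjusted p of up to 0.0573, and that of OPR1 without 0 h replicates 1 or 2 or 6 h replicates 2 or 3, at an adjusted p of up to 0.168. Without 0 h replicate 2 the list kept 1 call. The lipoxygenase genes LOX8 and LOX9, which supply the pathway, read 0.42 ± 0.46 (adjusted p = 0.681) and 0.48 ± 0.42 (adjusted p = 0.578), the cyclase gene AOC3 0.04 ± 0.23, and GH3.5 (JAR1), which makes the active isoleucine conjugate, -0.12 ± 0.13. None of these 4 passed. Nor did the other reductase genes of the list, OPR13 (adjusted p = 0.613) and OPR7 (adjusted p = 0.83). The second allene oxide synthase gene AOS1 (adjusted p = 0.122), LOX5 (adjusted p = 0.697) and LOX2 (-0.48 ± 0.16, adjusted p = 0.102) did not pass either. The rise was therefore not shared by all genes of a step.

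**Figure D3:**
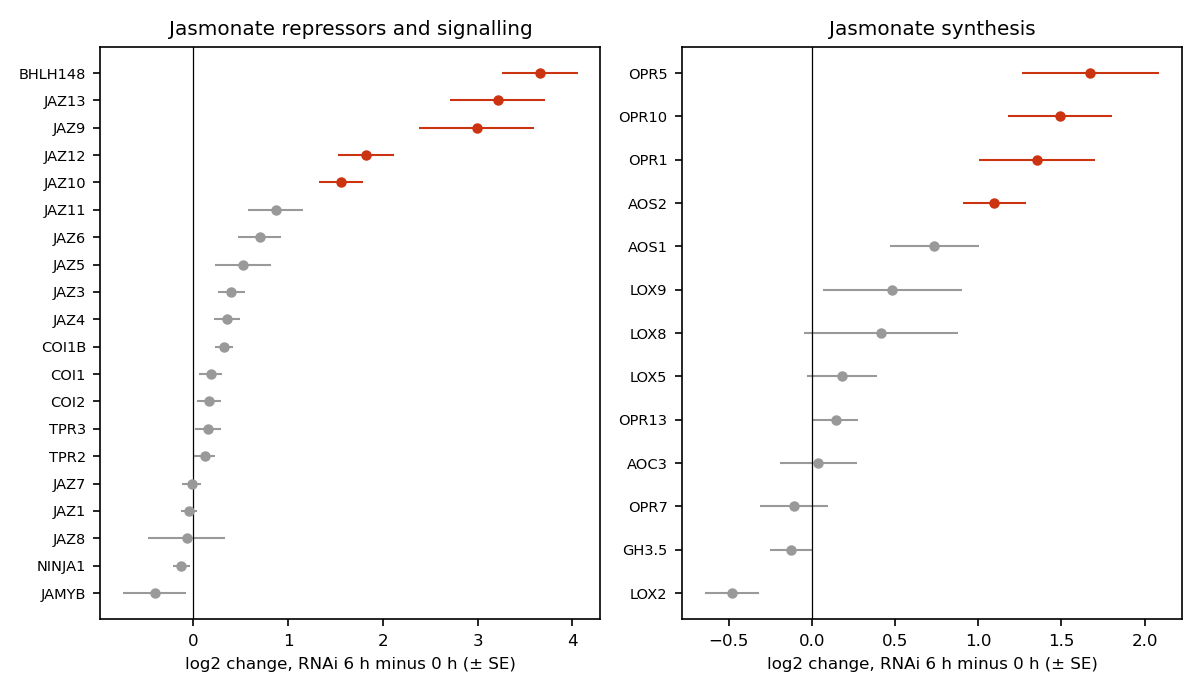
Log2 change from 0 h to 6 h in NIL-Bph6-RNAi (± SE, 3 arrays per group) for all measured genes of both jasmonate lists, with genes past the test in red. BHLH148, JAZ13 and JAZ9 lie near or above 3, and the receptor genes COI1, COI1B and COI2 lie between 0.16 and 0.32.

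Among transcription factors of other families, 2 of the 6 genes in the WRKY list rose and 0 fell, with a median change of 0.73 and all 6 changes above 0. WRKY71 (LOC4328512), a factor with known roles in defence and gibberellin signalling, read 9.42, 8.95 and 9.44 at 0 h and 12.36, 12.46 and 12.57 at 6 h, a change of 3.19 ± 0.25 (adjusted p = 2.72e-06), and its second probe set gave 2.52. WRKY24 (LOC4327518) read 6.57, 4.95 and 6.79 and then 9.49, 9.45 and 9.62 (3.41 ± 0.49, adjusted p = 0.000596), and replicate 2 was the lowest 0 h array. In both genes the 6 h arrays lay close together and clear of the 0 h arrays. WRKY76 (adjusted p = 0.224) and WRKY62 (adjusted p = 0.69) did not pass, at 0.84 ± 0.38 and 0.31 ± 0.35.

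In the zinc finger and MYB list 6 of 60 genes rose, SAP11 among them, and 1 fell, with a median of 0.15. MYB2 (LOC4332651), a drought and cold response regulator, read 7.51, 6.89 and 7.49 at 0 h and 10.76, 10.25 and 10.65 at 6 h (3.25 ± 0.40, adjusted p = 0.000139). MYB4 (LOC4336407), a cold-induced factor, read 10.10, 9.65 and 9.91 and then 11.69, 12.27 and 12.05 (2.12 ± 0.36, adjusted p = 0.00237). The CCCH zinc finger gene C3H33 (LOC4337692) read 11.63, 11.31 and 11.44 and then 13.17, 13.48 and 13.35 (1.87 ± 0.20, adjusted p = 2.66e-05), and no array of these genes overlapped between times. The 1 that fell was MIF3 (LOC4347053), which encodes a mini zinc finger protein, at 10.30, 10.68 and 10.13 and then 9.46, 8.49 and 7.57 (-1.86 ± 0.46, adjusted p = 0.0283). Its 6 h arrays spread over almost 2 log2 units with replicate 3 lowest, and its call ended without 0 h replicates 1, 2 or 3 or 6 h replicates 2 or 3, at an adjusted p of up to 0.127.

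All 7 measured genes of the NAC list had positive changes, of which 3 passed, with a median of 0.62. NAC067 (LOC4342753) read 10.62, 10.53 and 10.70 at 0 h and 11.89, 11.64 and 11.62 at 6 h (1.10 ± 0.20, adjusted p = 0.00464). NAC068 stood at 1.09 ± 0.27 (adjusted p = 0.0287) and NAC048 (SNAC2), a drought and salt tolerance factor, at 0.98 ± 0.21 (adjusted p = 0.0112). The call of NAC068 ended without 0 h replicates 1, 2 or 3 or 6 h replicates 1 or 3, at an adjusted p of up to 0.109, and that of NAC048 without 0 h replicate 2 or 6 h replicate 3, at an adjusted p of up to 0.059. Of 16 MAP kinase genes 1 rose and 0 fell, with a median of -0.01. It was MAPK5 (LOC4332475, also MPK3), the wound- and pathogen-responsive kinase, at 9.10, 8.76 and 9.09 and then 10.98, 11.12 and 11.31 (2.16 ± 0.28, adjusted p = 0.000252), with all 6 h arrays above all 0 h arrays.

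Calcium sensors and the kinases they act through gave 12 rises and 0 falls among 71 genes, with a median of 0.17. The largest was the calmodulin-like gene CML31 (LOC4325408), at 8.63, 7.80 and 8.42 and then 12.23, 11.70 and 11.70 (3.59 ± 0.37, adjusted p = 2.64e-05). CML27 (LOC4332731) read 9.43, 9.48 and 9.34 and then 10.95, 11.25 and 11.18 (1.71 ± 0.28, adjusted p = 0.002), although its other, dimmer probe set gave -0.21. CML16 (LOC4325693) read 11.47, 11.12 and 10.67 and then 12.52, 12.99 and 12.80 (1.69 ± 0.32, adjusted p = 0.00563). The 0 h and 6 h arrays of these 3 did not overlap. CML15 stood at 1.70 ± 0.44 (adjusted p = 0.0335), a call that ended without any 1 of the 6 arrays, at an adjusted p of up to 0.127. The 12 also held the other calmodulin-like genes CML20, CML4 and CML30, the calcium-dependent kinase genes CDPK1 at 1.36 ± 0.24 and CPK13 at 0.74 ± 0.09, and the calcineurin B-like interacting kinase genes CIPK17, CIPK21 and CIPK1. Without 0 h replicate 2 the list kept 6 calls.

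Families taken up after their values were seen were the stress-associated A20/AN1 zinc finger proteins and the PP2C phosphatases. Of 12 measured SAP genes, 5 rose and 0 fell, with a median of 0.12. SAP17 (LOC4346945) read 7.46, 7.44 and 7.60 at 0 h and 10.25, 10.04 and 9.93 at 6 h (2.57 ± 0.26, adjusted p = 1.95e-05). SAP11 (LOC4345973) read 7.12, 7.71 and 7.70 and then 9.88, 10.07 and 9.43 (2.28 ± 0.23, adjusted p = 1.76e-05), and ISAP1 (LOC4347423), known for cold, drought and salt tolerance, 10.42, 10.50 and 10.57 and then 12.37, 12.41 and 12.52 (1.94 ± 0.18, adjusted p = 7.86e-06). All 3 separated the times fully, whereas SAP16 and SAP8 rose by less, at 0.48 ± 0.11 and 0.31 ± 0.07, and lost their calls without some arrays. For SAP16 these were 0 h replicates 2 or 3 or 6 h replicates 1 or 3, at an adjusted p of up to 0.106, and for SAP8 0 h replicates 1, 2 or 3 or 6 h replicates 1 or 3, at an adjusted p of up to 0.0942.

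Of 53 PP2C genes, which include the brakes on abscisic acid signalling, 8 rose and 1 fell, with a median of 0.11, and the rises came to 5 without 0 h replicate 2 and to 13 with array weights. PP2C32 (LOC4332509) read 8.55, 8.38 and 8.88 at 0 h and 11.26, 11.13 and 11.04 at 6 h (2.54 ± 0.25, adjusted p = 1.76e-05). PP2C61 (LOC4342246) read 8.11, 7.27 and 7.10 and then 9.66, 9.60 and 9.97 (2.25 ± 0.25, adjusted p = 4.22e-05), and again no 6 h array reached down to a 0 h array. PP2C35 (XB15), which is known to restrain the XA21 receptor kinase, stood at 1.49 ± 0.26 (adjusted p = 0.00287). PP2C34 and PP2C02 rose by 1.37 ± 0.23 and 1.31 ± 0.19. PP2C54 fell by 0.61, a call that ended without 0 h replicates 2 or 3 or 6 h replicates 1 or 3, at an adjusted p of up to 0.0873. A gene with discordant probe sets was PP2C45 (LOC4337276). Its dim probe set read 0.86, 2.36 and 4.09 at 0 h and 6.59, 5.68 and 5.89 at 6 h (3.61 ± 0.79, adjusted p = 0.0141, ended without 0 h replicates 1 or 2 or 6 h replicate 1, at an adjusted p of up to 0.0597), and its bright one 11.71, 11.55 and 11.74 and then 11.81, 11.85 and 11.83 (0.16 ± 0.11, adjusted p = 0.423). All 0 h values of the dim one lay below the overall median.

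Abscisic acid genes gave 1 rise and 0 falls among 23, with a median of 0.10. The riser was ABA8OX1 (LOC9269675), the hydroxylase that breaks the hormone down, at 7.996, 8.05 and 8.15 and then 10.84, 11.18 and 10.98 (2.94 ± 0.26, adjusted p = 7.08e-06). The synthesis gene ABA1, the receptor gene PYL11 and the 10 SAPK kinase genes did not pass. The phosphatase genes PP2C68 and PP2C30, which belong to both lists, read 1.08 ± 0.31 (adjusted p = 0.0529) and 0.87 ± 0.25 (adjusted p = 0.0529). Dehydrin and LEA genes, whose proteins protect cells during water loss and which abscisic acid is known to induce, gave 3 rises and 0 falls among 8, with a median of 0.96.

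RAB21 (LOC4350454) read 9.71, 8.94 and 9.30 at 0 h and 11.96, 12.15 and 12.36 at 6 h (2.84 ± 0.55, adjusted p = 0.00667), and its other probe set gave 2.37. LEA3-1 (LOC4339480) read 7.61, 6.33 and 7.21 and then 9.43, 9.44 and 9.83 (2.52 ± 0.59, adjusted p = 0.0206). RAB16B (LOC4350453) read 6.80, 6.95 and 5.53 and then 7.88, 8.32 and 8.61 (1.84 ± 0.44, adjusted p = 0.0234). The groups did not overlap in these 3, and RAB16C and RAB16D, from the same family, stood at -0.08 ± 0.31 and -0.42 ± 0.96. The call of LEA3-1 ended without 0 h replicates 2 or 3 or 6 h replicates 1 or 3, at an adjusted p of up to 0.112, and that of RAB16B without 0 h replicate 3 or 6 h replicates 2 or 3, at an adjusted p of up to 0.107. At 48 h the levels of all 3 were lower than at 6 h, at 10.71 ± 0.48, 8.85 ± 0.27 and 6.72 ± 0.66 (SD, n = 3), and for RAB16B the difference from 6 h passed the test (-1.55 ± 0.44, adjusted p = 0.04).

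Ethylene genes gave 4 rises and 0 falls among 10, with a median of 0.22, and each of these calls was lost without some arrays. ACS2 (LOC4336750), an enzyme of ethylene synthesis, read 6.14, 6.17 and 7.41 at 0 h and 8.12, 7.74 and 8.34 at 6 h (1.49 ± 0.39, adjusted p = 0.0367), with 0 h replicate 3 nearest to the 6 h arrays. EIL1B (LOC4332697) and EIL1A (LOC107276358), EIN3-like activators of the response, rose by 1.20 ± 0.32 (adjusted p = 0.0399) and 0.40 ± 0.08 (adjusted p = 0.0111), and the second probe set of EIL1A gave -0.09. The receptor gene ETR2 (LOC4335058) read 9.36, 9.46 and 9.21 and then 9.77, 9.97 and 9.76 (0.49 ± 0.12, adjusted p = 0.0279). The call of ACS2 ended without 0 h replicates 1 or 2 or 6 h replicates 1 or 3, at an adjusted p of up to 0.162, that of EIL1B without 0 h replicates 2 or 3 or 6 h replicates 1 or 3, at an adjusted p of up to 0.197, that of ETR2 without any 1 of the 6 arrays, at an adjusted p of up to 0.113, and that of EIL1A without 0 h replicate 2, at an adjusted p of up to 0.0738. Without 0 h replicate 2 the list kept 0 calls. The oxidase gene ACO1, for the last step of synthesis, stood at -0.02 ± 0.23, and EIN2, the membrane protein at the centre of the pathway, at -0.11 ± 0.15, neither past the test.

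Salicylate signalling gave 2 rises and 0 falls among 9, with a median of 0.30. NPR4 (LOC4327365) read 7.80, 8.03 and 8.01 at 0 h and 9.26, 9.10 and 9.38 at 6 h (1.30 ± 0.19, adjusted p = 0.000804), and NPR1 (LOC4327315, also NH1), the co-activator of salicylate responses, 8.69, 8.41 and 8.68 and then 9.33, 9.15 and 9.32 (0.68 ± 0.15, adjusted p = 0.0187). Neither overlapped between times, and the call of NPR1 ended without 0 h replicate 2 or 6 h replicates 1 or 3, at an adjusted p of up to 0.105.

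The 16 genes of diterpenoid phytoalexin synthesis had a median change of 1.54 and 14 positive changes, yet 0 passed in limma. At an unadjusted p under 0.05, 8 were higher, beside 6585 of all 32732 probe sets in either direction. The count was 2 without 6 h replicate 2 and 7 with array weights. The member with the largest change was the P450 gene CYP76M6 (LOC4329730), at 6.97, 5.11 and 5.64 and then 7.74, 7.53 and 8.69 (2.08 ± 0.66, adjusted p = 0.0803). Its 0 h arrays spread over almost 2 log2 units, with replicate 1 highest. Momilactone synthase MAS stood at 1.56 ± 0.46 (adjusted p = 0.0584) and the diterpene cyclase genes KSL7 and CPS4 at 1.96 ± 0.60 and 2.04 ± 0.80. Members of these enzyme families resemble each other, and cross-hybridisation between their probe sets was not tested.

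Pathogenesis-related genes gave 1 rise and 0 falls among 20, with a median of 0.38, and 4 rises without 6 h replicate 2. It was the germin-like gene GLP2 (LOC4344846), at 6.66, 5.74 and 6.39 and then 7.32, 7.66 and 8.17 (1.45 ± 0.35, adjusted p = 0.0241), and the call ended without 0 h replicates 2 or 3 or 6 h replicate 3, at an adjusted p of up to 0.133. Of 4 proteinase inhibitor genes 2 rose. The Bowman-Birk trypsin inhibitor gene RBBI3.3 (LOC9271230) read 10.10, 9.88 and 11.03 at 0 h and 13.70, 11.16 and 14.41 at 6 h (2.76 ± 0.71, adjusted p = 0.0335), and replicate 2 at 6 h stood only just above 0 h replicate 3. The cystatin gene OC-I (LOC4327535) read 13.68, 13.10 and 13.48 and then 14.06, 14.19 and 14.26 (0.75 ± 0.20, adjusted p = 0.0397). The call of RBBI3.3 ended without 0 h replicates 1, 2 or 3 or 6 h replicates 1 or 3, at an adjusted p of up to 0.14, and that of OC-I without 0 h replicates 2 or 3 or 6 h replicates 1, 2 or 3, at an adjusted p of up to 0.192.

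Phenylpropanoid genes, which feed lignin and flavonoids, moved in both directions, with 2 rises and 1 fall among 20 and a median of -0.18. The ligase gene 4CL5 (LOC4345717) read 7.80, 7.63 and 7.60 and then 9.13, 9.15 and 9.49 (1.58 ± 0.28, adjusted p = 0.00339). Cinnamyl alcohol dehydrogenase gene CAD8A (LOC4346988) rose by 1.55 ± 0.42 (adjusted p = 0.0428), and its relative CAD3 (LOC4348690) read 12.95, 13.03 and 12.72 and then 11.39, 12.20 and 11.52 (-1.19 ± 0.23, adjusted p = 0.00633). The arrays of 4CL5 and CAD3 did not overlap between times, and the call of CAD8A ended without 0 h replicates 1, 2 or 3 or 6 h replicates 1 or 3, at an adjusted p of up to 0.16. For a phenylalanine ammonia-lyase gene, PAL (LOC4330034), 1 of 5 probe sets gave -0.96 ± 0.26 (adjusted p = 0.0448, ended without any 1 of the 6 arrays, at an adjusted p of up to 0.179) and the others reached up to -0.06.

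Of 42 heat shock factor and protein genes 5 rose and 0 fell, with a median of 0.10, and 4 of the 5 encode factors. HSFA4D (LOC4339409, also SPL7), a factor whose loss gives lesion-like leaf spots, read 8.70, 8.27 and 8.62 at 0 h and 9.95, 9.91 and 10.14 at 6 h (1.47 ± 0.29, adjusted p = 0.00775). HSFA3 (LOC4329526) read 8.49, 8.07 and 8.15 and then 9.52, 9.84 and 10.85 (1.83 ± 0.44, adjusted p = 0.0231). HSFB1 stood at 0.90 ± 0.18 (adjusted p = 0.00837) and HSFC1B at 0.75 ± 0.17 (adjusted p = 0.0158), and the 1 heat shock protein gene was HSP17.9A at 0.56 ± 0.13. The call of HSFA3 ended without 0 h replicates 2 or 3 or 6 h replicate 3, at an adjusted p of up to 0.104, that of HSFB1 without 0 h replicate 2, at an adjusted p of up to 0.0536, and that of HSFC1B without 0 h replicates 2 or 3 or 6 h replicate 3, at an adjusted p of up to 0.0929. Without 0 h replicate 2 the list kept 1 call.

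Of 6 trehalose phosphate genes 1 rose and 0 fell. TPP7 (LOC4346885), a trehalose-6-phosphate phosphatase that removes a sugar-status signal and is known for anaerobic germination, read 9.18, 9.22 and 9.36 at 0 h and 11.16, 11.34 and 12.01 at 6 h (2.25 ± 0.31, adjusted p = 0.000422), and its other probe set gave 1.34. TPP1 stood at 1.14 ± 0.35 (adjusted p = 0.0685) and TPP2, TPP9, TPP4 and TPP10 between -0.67 and 0.40, none past the test. Among 29 callose and sucrose supply genes the sucrose synthase gene SUS4 rose by 0.63 ± 0.13 (adjusted p = 0.0118, ended without 0 h replicate 2 or 6 h replicate 3, at an adjusted p of up to 0.0697). The sugar transporter gene SWEET6a stood at -0.62 ± 0.17 (adjusted p = 0.0448, ended without any 1 of the 6 arrays, at an adjusted p of up to 0.17).

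In the cell wall loosening and cellulose list 2 of 52 genes rose and 0 fell, with a median of -0.17. The COBRA-like gene BC1L9 (LOC4349011) read 6.56, 6.08 and 7.06 and then 9.24, 9.29 and 10.11 (2.98 ± 0.38, adjusted p = 0.00018), and its second probe set 2.91. The expansin-like gene EXLA2 rose by 1.28 ± 0.27 (adjusted p = 0.0126, ended without 0 h replicate 1 or 6 h replicate 3, at an adjusted p of up to 0.0631). Of 53 auxin response genes 3 rose, SAUR39 at 1.71 ± 0.34, IAA6 at 1.17 ± 0.29 and IAA2 at 1.07 ± 0.24, and 3 fell, ARF10 at -0.95 ± 0.20, ARF2 at -0.76 ± 0.18 and IAA15 at -0.43 ± 0.11. Without 0 h replicate 2 there were 0 rises and 0 falls among the 53, without 6 h replicate 3 there were 1 and 0, without 0 h replicate 1 there were 4 and 1, and over all arrays left out in turn the adjusted p of SAUR39, IAA6 and IAA2 reached 0.0522, 0.149 and 0.0865. The cytokinin-activating enzyme gene LOGL9 (LOC4347769) rose by 1.14 ± 0.21 (adjusted p = 0.00486), the 1 call among 29 cytokinin genes, and the gibberellin synthesis gene GA20OX3 by 0.67 ± 0.18 (adjusted p = 0.0447, ended without 0 h replicates 2 or 3 or 6 h replicates 1, 2 or 3, at an adjusted p of up to 0.167), the 1 among 7.

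The remaining lists gave few calls. The glutathione transferase gene GSTU6, at 0.65 ± 0.18 (adjusted p = 0.0435, ended without any 1 of the 6 arrays, at an adjusted p of up to 0.158), was the 1 rise among 22 genes of the respiratory burst and peroxide handling. Of 10 U-box and RING ubiquitin ligase genes 2 rose, SPL11, a known brake on cell death, at 0.49 ± 0.12 (adjusted p = 0.0292) and PUB4 at 0.40 ± 0.11 (adjusted p = 0.0399). Of 58 histone and cell cycle genes 3 rose, CYCD5-3 at 0.70 ± 0.16, CDKG-1 at 0.55 ± 0.14 and CDKF-1 at 0.46 ± 0.11, and the count was 0 without 6 h replicate 3, 1 without 0 h replicates 1, 2 or 3 or 6 h replicate 1, and 1 with median centring. A list matched by name holds ABC transporter, lipid-transfer and wax genes, and 1 of its 21 genes fell. It was wsl6, at -0.66 ± 0.17 (adjusted p = 0.0316), which entered by its name alone, so it is not shown to be a transporter or wax gene. The call of SPL11 ended without 0 h replicates 2 or 3 or 6 h replicates 1, 2 or 3, at an adjusted p of up to 0.152, that of PUB4 without any 1 of the 6 arrays, at an adjusted p of up to 0.153, and that of wsl6 without any 1 of the 6 arrays, at an adjusted p of up to 0.123. The 7 receptor genes and the 2 exocyst genes gave 0 calls in limma, 0 also at an unadjusted p under 0.05.

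Of 13 secondary wall xylan genes 0 rose and 2 fell, with a median of -0.29. GT43A (LOC4337665), a glycosyltransferase of the family that builds the xylan backbone, read 11.95, 12.07 and 11.78 at 0 h and 10.98, 11.27 and 10.36 at 6 h (-1.06 ± 0.26, adjusted p = 0.0254). XOAT7 (LOC4344387), a xylan acetyltransferase, read 9.19, 9.57 and 9.23 and then 8.39, 8.81 and 8.20 (-0.86 ± 0.15, adjusted p = 0.00364). No 6 h array of either reached a 0 h array, and the call of GT43A ended without 0 h replicates 1, 2 or 3 or 6 h replicates 1 or 3, at an adjusted p of up to 0.112.

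Among other falls, ENR (LOC4346596), the enoyl reductase of plastid fatty acid synthesis, read 11.21, 11.47 and 11.47 at 0 h and 10.49, 10.45 and 10.03 at 6 h (-1.06 ± 0.20, adjusted p = 0.0051). DAPB2 (LOC4332231), a reductase of lysine synthesis, read 10.33, 10.57 and 10.37 and then 9.22, 9.81 and 9.56 (-0.89 ± 0.16, adjusted p = 0.00428). Both kept their arrays apart and their calls under every alternative run. PDF1A (LOC4324565), a peptide deformylase of organelle translation, read 10.59, 10.81 and 10.80 and then 9.49, 9.88 and 9.87 (-0.99 ± 0.21, adjusted p = 0.012). VLN1 (LOC4337837), a villin that bundles actin, went from 8.43, 8.13 and 8.33 to 7.34, 7.58 and 7.01 (-0.99 ± 0.22, adjusted p = 0.0142). The call of PDF1A ended without 0 h replicate 2 or 6 h replicate 1, at an adjusted p of up to 0.0579, and that of VLN1 without 0 h replicates 1 or 3 or 6 h replicate 3, at an adjusted p of up to 0.0676.

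ADIPOR1 (LOC4341641), a membrane protein gene named after the adiponectin receptors, stood at -1.001 ± 0.25 (adjusted p = 0.0287, ended without 0 h replicates 1, 2 or 3 or 6 h replicates 1 or 3, at an adjusted p of up to 0.109) and its 3 probe sets lay between -1.001 and -0.65. MYBS2 (LOC4349391), a MYB factor of sugar-regulated amylase genes, read 7.51, 7.44 and 7.57 and then 5.85, 6.24 and 6.81 (-1.21 ± 0.26, adjusted p = 0.0141). Its other probe sets reached up to -0.05, and the call ended without 0 h replicate 3 or 6 h replicate 1, at an adjusted p of up to 0.0665. The call of the auxin response factor ARF10 (adjusted p = 0.0118) ended without 0 h replicate 2 or 6 h replicate 3, at an adjusted p of up to 0.0617. The anthranilate synthase gene ASA1, for tryptophan synthesis, was the 1 fall among 17 amino acid genes, at -0.66 ± 0.16 (adjusted p = 0.0224, ended without 0 h replicates 2 or 3 or 6 h replicates 1 or 3, at an adjusted p of up to 0.0895).

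Genes of tetrapyrrole synthesis, the route to chlorophyll and haem, were taken up after several had appeared among the falls. All 12 measured had negative changes, 6 of them fell at the threshold, 0 rose, and the median was -0.53. A separate list of carbon fixation and chlorophyll synthesis, which shares members with it, gave 0 rises and 3 falls among 12 genes, with a median of -0.38. GSA (LOC4346136), which makes the precursor aminolevulinate, read 13.18, 13.37 and 13.24 at 0 h and 12.55, 12.69 and 12.75 at 6 h (-0.60 ± 0.11, adjusted p = 0.00386), although its dimmer probe set gave 0.01. HEMD (LOC4331869), the uroporphyrinogen synthase, read 10.21, 10.07 and 10.59 and then 9.82, 9.73 and 9.64 (-0.56 ± 0.16, adjusted p = 0.0474). The decarboxylase genes that follow were UPD1 (LOC4326635), at 12.15, 12.38 and 12.27 and then 11.36, 11.56 and 11.47 (-0.80 ± 0.20, adjusted p = 0.0319), and UPD2 (LOC4332771), at -0.50 ± 0.10 (adjusted p = 0.0102). All of their 6 h arrays lay below all of their 0 h arrays.

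Further down the route, the protoporphyrinogen oxidase gene PPOX1 (LOC4327918) read 12.11, 12.36 and 12.15 and then 11.38, 11.48 and 11.41 (-0.78 ± 0.19, adjusted p = 0.0268). The chlorophyll synthase gene CHLG (LOC4338498) read 12.18, 12.32 and 12.23 and then 11.67, 11.76 and 11.88 (-0.47 ± 0.12, adjusted p = 0.0347), and both kept the times apart. HEMB (-0.60 ± 0.18, adjusted p = 0.0592), the magnesium chelatase gene CHLD (-0.59 ± 0.17, adjusted p = 0.0581) and the reductase gene PORB (-0.38 ± 0.11, adjusted p = 0.0591) missed the threshold narrowly. CHLH, CHLI and PORA lay between -0.15 and -0.12. Of the 6 calls that of GSA alone held without any 1 array, and with an array left out 1 to 3 members of the list were called, not all of them among the 6. The call of HEMD ended without any 1 of the 6 arrays, at an adjusted p of up to 0.193, of UPD1 without any 1 of the 6 arrays, at an adjusted p of up to 0.134, of UPD2 without 0 h replicate 2, at an adjusted p of up to 0.0628, of PPOX1 without any 1 of the 6 arrays, at an adjusted p of up to 0.127 and of CHLG without any 1 of the 6 arrays, at an adjusted p of up to 0.143. The 10 light-reaction genes gave 0 calls in limma, 0 also at an unadjusted p under 0.05, with a median of 0.01. The 24 ribosomal protein genes gave 0 calls, with a median of -0.14, and 4 falls with array weights. At an unadjusted p under 0.05, 6 of the 24 were lower, beside 6585 of all 32732 probe sets in either direction.

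**Figure D4:**
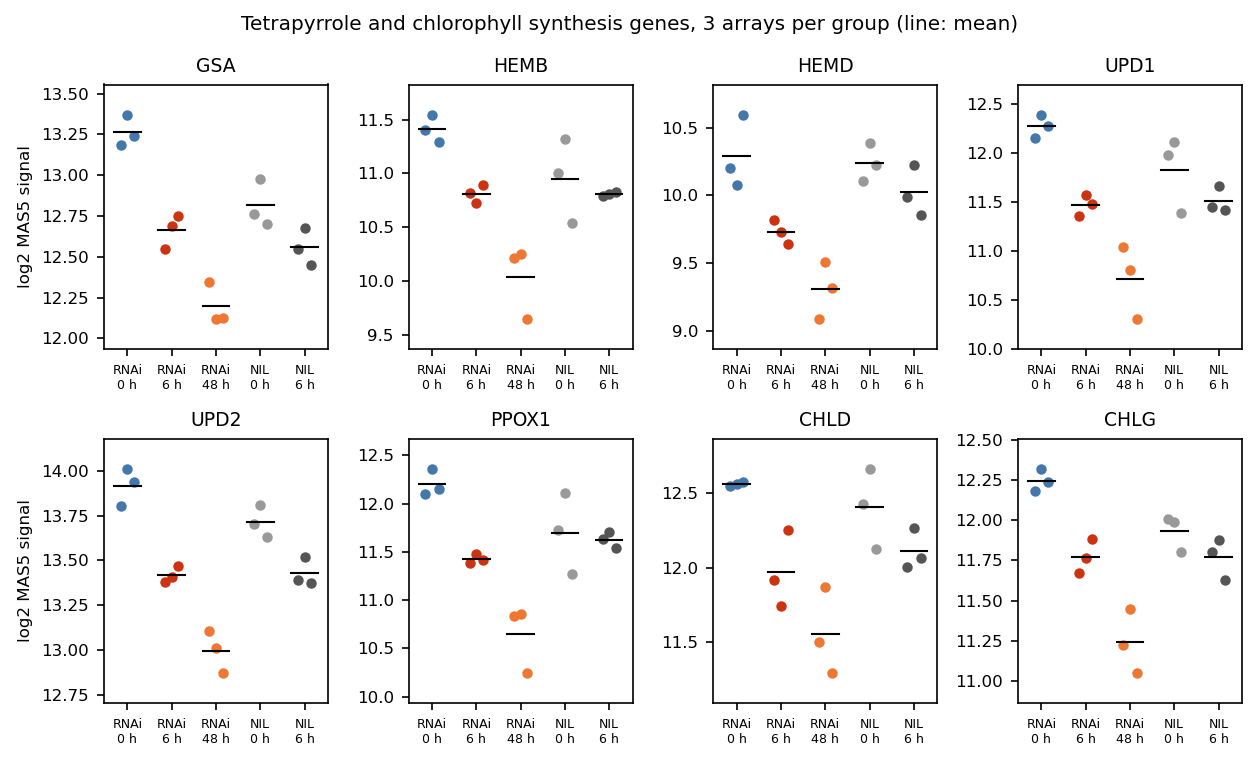
Log2 MAS5 signal of 8 genes of tetrapyrrole and chlorophyll synthesis on each array (points) with group means (lines), on a scale that does not start at 0. In NIL-Bph6-RNAi each 6 h mean lies below the 0 h mean, by 0.47 for CHLG to 0.80 for UPD1, and each 48 h mean lies lower again.

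Some of the largest changes belonged to genes with only a locus number. LOC4345815 read 5.28, 5.36 and 2.73 at 0 h and 8.28, 10.86 and 10.69 at 6 h (5.49 ± 1.04, adjusted p = 0.00541), and its other probe set gave 4.20. LOC4325751 went from 5.34, 4.35 and 5.85 to 8.92, 9.54 and 10.17 (4.36 ± 0.58, adjusted p = 0.000303), and LOC4326920 from 5.66, 6.35 and 6.14 to 10.49, 10.54 and 9.92 (4.27 ± 0.39, adjusted p = 7.86e-06). These 3 left the range of the 0 h arrays entirely. LOC4329309 stood at 4.31 ± 0.67 (adjusted p = 0.0012) and LOC4342313 at 4.34 ± 1.15 (adjusted p = 0.0379), from 0 h levels under the overall median. LOC4342313 read 6.55, 6.17 and 10.21 on the 6 h arrays, with replicate 3 far above the others, and its call ended without 0 h replicates 1 or 2 or 6 h replicates 1 or 3, at an adjusted p of up to 0.159.

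The deepest fall was that of LOC4332081, at 8.44, 8.65 and 8.02 and then 6.16, 6.17 and 3.42 (-3.12 ± 0.65, adjusted p = 0.0111, ended without 0 h replicate 2, at an adjusted p of up to 0.0561). LOC4331271 read 11.70, 11.82 and 11.51 and then 9.55, 9.43 and 9.08 (-2.32 ± 0.40, adjusted p = 0.00272), and LOC4325094 10.14, 10.63 and 10.41 and then 8.40, 8.12 and 7.75 (-2.30 ± 0.34, adjusted p = 0.000822). Their arrays stayed well apart. LOC4335018 stood at -2.64 ± 0.52 (adjusted p = 0.00691) and LOC4345148 at -2.20 ± 0.51 (adjusted p = 0.0198, ended without 0 h replicates 2 or 3 or 6 h replicate 3, at an adjusted p of up to 0.0899), with 6 h replicate 3 the lowest array of both.

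Levels at 48 h were set beside those at 6 h, and since the 6 h arrays enter both comparisons the changes are only given side by side. From 6 h to 48 h, 3.83% of all probe sets rose and 4.47% fell. All 17 genes with the largest rises by 6 h had a higher mean at 48 h than at 6 h, and 1 of these further changes passed, that of LOC4325751 (2.23 ± 0.58, adjusted p = 0.0286). Defence lists differed from 6 h to 48 h. Of 6 WRKY genes 2 rose and 0 fell, and of 13 jasmonate synthesis genes 3 rose and 0 fell. Among 20 pathogenesis-related genes 3 rose and 3 fell, and among 16 diterpenoid genes 0 rose and 0 fell. Single genes that had not passed by 6 h were far higher at 48 h. WRKY76 had means of 10.19 ± 0.22 at 6 h and 12.90 ± 0.32 at 48 h (2.70 ± 0.38, adjusted p = 0.00138), and WRKY62 of 8.37 ± 0.20 and 10.45 ± 0.29 (2.08 ± 0.35, adjusted p = 0.00429). LOX8 had 7.72 ± 0.41 and 10.30 ± 0.51 (2.58 ± 0.46, adjusted p = 0.00569) and JAMYB 9.02 ± 0.20 and 11.27 ± 0.65 (2.26 ± 0.33, adjusted p = 0.00195). AOS2, which had risen by 6 h, stood higher still at 48 h, at 11.59 ± 0.18 (1.60 ± 0.19, adjusted p = 0.000715). In the tetrapyrrole list 8 of 12 genes fell between 6 h and 48 h and 0 rose, PORA by 1.41 (adjusted p = 0.000715) and PPOX1 by 0.78 (adjusted p = 0.0227).

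The change in the RNAi line was set against that in NIL-Bph6, which shares no array with it. The difference of the changes passed for 2 of 32732 probe sets (0.00611%), with 4898 at an unadjusted p under 0.05. LOC4338474 read 10.57, 10.60 and 10.77 at 0 h and 13.13, 13.06 and 13.22 at 6 h in the RNAi line, while the means of NIL-Bph6 were 12.05 ± 0.30 and 12.72 ± 0.18 (SD, n = 3), a difference of changes of 1.82 ± 0.23 (adjusted p = 0.0172). LOC4337638 read 6.11, 5.90 and 6.40 and then 9.07, 8.97 and 8.83, against 8.51 ± 0.52 and 8.05 ± 0.55 in NIL-Bph6, a difference of 3.28 ± 0.43 (adjusted p = 0.0172), and its other probe set changed by 0.36 in the RNAi line. In both genes NIL-Bph6 stood higher at 0 h, and the 6 h means of the lines lay within 0.91 of each other. The count was 0 without NIL-Bph6-RNAi 0 h replicates 1 or 2, without any 1 of its 6 h arrays, and without NIL-Bph6 6 h replicates 2 or 3. It was 53 without NIL-Bph6 0 h replicate 2.

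Next in order were 4 genes whose difference did not pass. PP2C32 had means of 9.72 ± 0.25 and 10.05 ± 0.43 in NIL-Bph6, a difference of changes of 2.21 ± 0.35 (adjusted p = 0.086). COPT1 (LOC4324610), a copper transporter gene, rose from 8.92, 8.73 and 9.01 to 10.07, 10.08 and 10.44 in the RNAi line (1.31 ± 0.17, adjusted p = 0.000239) and had means of 9.90 ± 0.14 and 9.77 ± 0.19 in NIL-Bph6, a difference of 1.44 ± 0.24 (adjusted p = 0.086). The loci LOC4330189 and LOC4345456 rose by 2.88 ± 0.23 and 3.08 ± 0.27 in the RNAi line, with differences of 2.05 ± 0.32 (adjusted p = 0.086) and 2.29 ± 0.39 (adjusted p = 0.086). In all 4 the mean of NIL-Bph6 at 0 h was the higher of the lines.

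For the 17 genes with the largest falls in the RNAi line, the changes in NIL-Bph6 lay between -0.70 and 0.17, and the smallest adjusted p of a difference was 0.237. In all 17 the 0 h mean was higher in the RNAi line than in NIL-Bph6. For the 17 with the largest rises the changes in NIL-Bph6 lay between -0.26 and 6.92, and in 15 the 0 h mean was lower in the RNAi line. Both sets were chosen on the arrays of the RNAi line, its 0 h arrays included, so these counts are a description and no test. TPP7, HSFA3, JAZ9 and LOC4345815 had larger values in NIL-Bph6, with changes of 2.68 ± 0.31, 2.58 ± 0.44, 3.36 ± 0.60 and 6.92 ± 1.04.

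**Figure D5:**
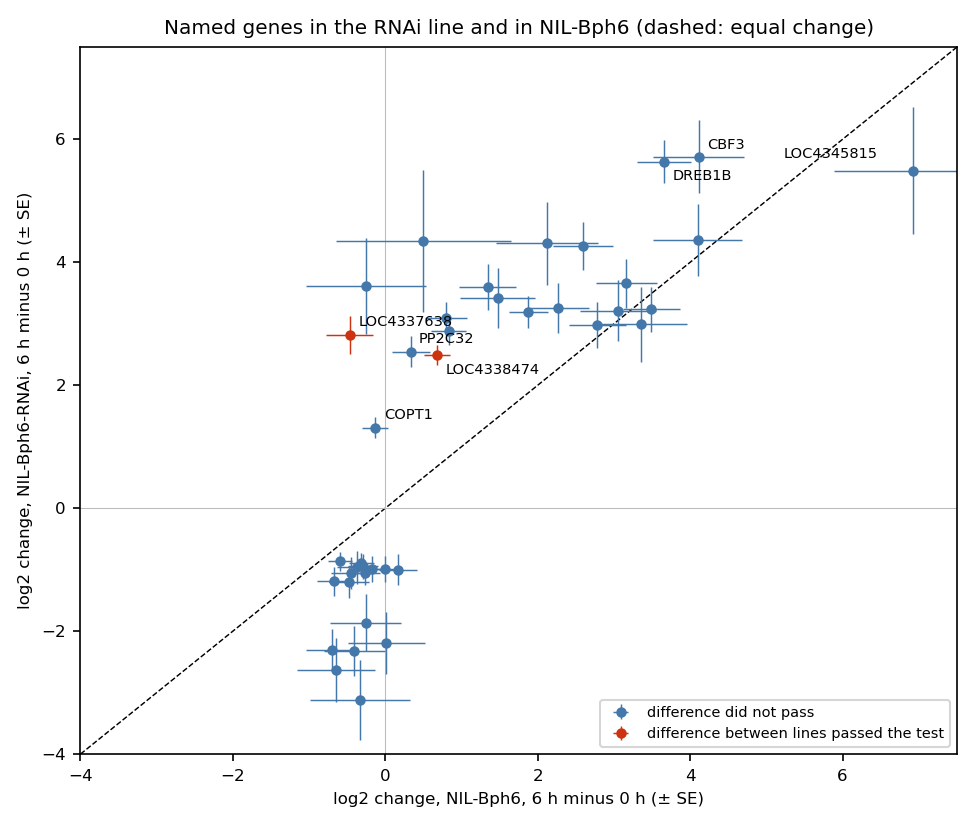
Log2 change from 0 h to 6 h in NIL-Bph6-RNAi (vertical) against that in NIL-Bph6 (horizontal), with SE bars, for the genes with the largest changes in the former and the 6 with the smallest p for the difference. The dashed line marks equal change. LOC4338474 and LOC4337638, in red, are the genes whose difference passed, and the falls lie between -0.70 and 0.17 on the horizontal axis.

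Clock genes and markers of other tissues were read because no unfed 6 h plants were analysed and because sheath samples can hold other cells. Of 8 clock genes 1 rose, PRR95 (LOC4347674), at 12.24, 12.01 and 12.14 and then 12.65, 12.46 and 12.85 (0.52 ± 0.14, adjusted p = 0.0379), and the call ended without 0 h replicates 1, 2 or 3 or 6 h replicates 1 or 3, at an adjusted p of up to 0.162. GI, PCL1, PRR73 and PRR37 lay between -0.11 and 0.00, LHY at 0.36 ± 0.23, Hd1 at 0.46 ± 0.25 and PRR1 at 0.18 ± 0.12, none past the test. Of 19 root markers 13 passed the intensity filter and 3 rose, the ammonium transporter gene AMT1 by 1.14 ± 0.25 and the phosphate transporter genes Pht1;8 by 1.03 ± 0.26 and Pht1;1 by 0.83 ± 0.15. A second probe set of Pht1;1 gave -0.87. The mean level over these 13 was 7.65 to 7.99 on the 0 h arrays and 8.08 to 8.34 on the 6 h arrays, which do not overlap, and its part in the results was not tested. The call of AMT1 ended without 0 h replicates 2 or 3 or 6 h replicate 3, at an adjusted p of up to 0.0791, and that of Pht1;8 without 0 h replicates 2 or 3 or 6 h replicates 1, 2 or 3, at an adjusted p of up to 0.152.

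Of 28 shoot meristem markers 20 were measured and 1 rose, WOX11 (LOC4344325), a homeobox gene known from crown roots, at 6.05, 5.41 and 5.90 and then 7.61, 7.34 and 7.81 (1.80 ± 0.35, adjusted p = 0.006). Their mean level was 7.64 to 8.05 at 0 h and 7.94 to 8.38 at 6 h. All 5 phloem and all 16 xylem markers were measured, and 0 of either passed in limma, with median changes of -0.28 and -0.31. At an unadjusted p under 0.05 there were 1 and 4, beside 6585 of all 32732 probe sets. The laccase gene LAC19 had the largest change of the xylem markers, 3.28 ± 0.94 (adjusted p = 0.0528). Of 13 seed and pollen markers 5 were measured and 0 passed, 0 also unadjusted. Their mean level was 7.26 to 7.66 at 0 h and 7.68 to 7.94 at 6 h, so non-overlap of the mean level was not particular to the root markers. Of 29 reference genes 1 fell, the tubulin gene TUBB7 at -0.63 ± 0.17 (adjusted p = 0.0434, ended without 0 h replicates 1, 2 or 3 or 6 h replicates 1 or 3, at an adjusted p of up to 0.181), and their median change was -0.05. The 3' over 5' signal of the control probe sets, which reflects RNA quality, averaged on the log2 scale 2.47 ± 0.28 at 0 h and 2.20 ± 0.42 at 6 h (SD, n = 3).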

How the data were processed

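Leaf sheath RNA of 18 samples, 3 per line and time, was measured on Affymetrix rice arrays. The deposited values are log2 signals made with MAS5 per the submitters' processing notes, with no version or scaling given there. No further normalisation or pseudocount was applied. Of 57381 probe sets 123 controls were left out, and 32732 that exceeded the overall median of 5.78 on at least 3 arrays were tested. A model of 6 group means was fitted to all 18 arrays with limma 3.58.1 (R 4.3.3), with moderated variances following a trend in signal, and p-values were adjusted by Benjamini-Hochberg over all 32732. A probe set was called at an adjusted p under 0.05. The small number of arrays limits the precision of each value. The procedure was tested on simulated data.

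Genes were named through the platform annotation, updated by RefSeq gene IDs, and only from probe sets with 1 gene, which held for 1358 of the 1736 called. In the lists each gene was represented by its probe set with the highest mean. The rule named the 12 largest rises and falls among genes with a name and the 5 largest each among genes with only a locus number, called and not overlapping between times. It also named up to 4 called members per list (with no call, the member that changed most), up to 6 genes with the smallest p for the difference between lines, and all members of the DREB1, jasmonate, WRKY, ethylene, trehalose and clock lists. Members of other lists given in addition were chosen after their values were seen. The comparison and the lists were chosen with earlier results of these data known, and the SAP, PP2C and tetrapyrrole lists after their own values. Alternatives covered normalisation, filter, offset, variance trend, array weights, RNA quality, replicate number and each array left out.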

Additional observations from a re-analysis of the deposited data

Results flagged for a closer look

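The change from 0 h to 6 h differed between NIL-Bph6-RNAi and NIL-Bph6 in the test of the difference itself for LOC4338474, by 1.82 on the log2 scale, and for LOC4337638, by 3.28 (adjusted p = 0.0172 for both in limma, 3 arrays per group). LOC4338474 rose by 2.49 ± 0.17 in the RNAi line and by 0.68 ± 0.17 in NIL-Bph6 (log2 ± SE). LOC4337638 rose by 2.82 ± 0.31 in the RNAi line and changed by -0.47 ± 0.31 in NIL-Bph6 (adjusted p = 0.414). Both calls depended on the settings. No difference passed with the 3' to 5' difference as covariate or with no variance trend, and 0 to 53 passed with an array left out in turn.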

How the results depend on the processing

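The count of 1736 called probe sets became 3941 with array weights and 828 where a 2-fold change was also required, and 669 to 1498 with an array left out in turn. It stayed within 1.5 times under the other 9 settings, between 1202 with no variance trend and 2160 with only the groups compared, where 1200 rose and 960 fell. The count of 2 differences between the lines became 0 with the 3' to 5' difference as covariate, 1066 with array weights, 10 with median centring, 0 with no variance trend and 5 with only the groups compared, and 0 to 53 with an array left out in turn. The cause of these shifts was not tested. With 1 array left out fewer arrays also enter the fit, and the part of this in the shifts was not tested either. Of 117 called probe sets named by the rule, 55 kept their call under every alternative, 62 lost it under at least 1 of up to 16, and 0 reversed. Of 810 counts of list members, 241 moved by more than 1.5 times. Same-numbered 0 h and 6 h replicates had deviations that correlated at -0.06, 0.10 and -0.01. These show no pairing by number, but so few values cannot exclude one. A replicate block gave 1713 calls and 2 differences. Signals near or below the overall median of 5.78 limit what the dimmest genes show.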
